A study of Mus musculus with 6 samples.

Results

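The genes described here are those of the MHC class II pathway: the chains that present peptide, the chaperones that load them and the transcriptional coactivator that switches the set on. They were chosen by gene symbol, as 10 named members of a count table with 14788 gene symbols: H2-Aa, H2-Ab1, H2-Eb1, H2-Eb2, Cd74, H2-DMa, H2-DMb1, H2-DMb2, H2-Oa and Ciita. All 10 were in the table and all 10 passed the filter on low counts, as did 11504 genes in all. RNA was sequenced from splenic cDC2s, the type-2 conventional dendritic cells, of C57BL/6 mice, in 3 libraries of genotype Arhgef1-/- (knockout, KO) and 3 wild-type (WT) libraries. The product of Arhgef1 loads RhoA, a small GTPase of the cytoskeleton, with GTP when receptors signal through G12 and G13 proteins. The labels give no age, sex, treatment or sorting gate, and do not say which part of Arhgef1 was deleted or whether the deletion was restricted to some cells.

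The class II molecule of a dendritic cell is a pair of alpha and beta chains that displays peptides from endocytosed proteins to CD4 T cells. New pairs are held by the invariant chain, encoded by Cd74, which fills the peptide groove and steers the pair to endosomes. There proteases cut the invariant chain down to a fragment, H2-DM exchanges that fragment for peptide, and H2-DO restrains H2-DM. Ciita, a coactivator that does not bind DNA itself, joins factors sitting on the X and Y boxes of class II promoters and sets the transcription of most genes of the pathway. C57BL/6 mice carry a defective gene for the E alpha chain, so the E beta chain made from H2-Eb1 has no partner of its own isotype in this strain.

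All members but Cd74 and Ciita lie in the MHC on mm10 chromosome 17, from H2-Oa (34092340 to 34095234, plus strand) to H2-Eb2 (34325665 to 34341412, plus strand). H2-Aa (34282744 to 34287823) is on the minus strand of that cluster, next to H2-Ab1 (34257689 to 34269419) and H2-Eb1 (34305867 to 34316674) on the plus strand. Ciita is on chromosome 16 (10480059 to 10528418, plus strand). Positions are those of GENCODE vM21. RefSeq promoter windows (GRCm38.p6), each running from 250 bases before to 50 after an annotated start, were read for 7 of the 10 members. No window was read for H2-Ab1 or Ciita, and Cd74 was left out of the search by choice. H2-Ob, which encodes the beta partner of H2-Oa, was read beside the 7 members.

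The stretches around the Y box are shown because they are the shared landmark through which these genes are switched on together. Each is 60 bases long and written 5′ to 3′ on the strand of its gene, with TGATTGG, the core of the Y box, in capitals. Also in capitals is GNAAC, the core of the X box, where it begins 20 to 40 bases before the Y box. The letters searched were chosen after reading these windows, on both strands of each, and the 2 motifs share no base.
H2-Aa, chr17:34287862-34287921: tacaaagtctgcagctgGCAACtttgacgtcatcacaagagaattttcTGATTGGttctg
H2-Eb1, chr17:34305758-34305817: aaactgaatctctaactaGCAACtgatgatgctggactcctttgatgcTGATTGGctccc
H2-Eb2, chr17:34325525-34325584: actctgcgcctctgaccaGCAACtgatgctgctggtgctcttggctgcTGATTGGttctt
H2-DMb1, chr17:34153080-34153139: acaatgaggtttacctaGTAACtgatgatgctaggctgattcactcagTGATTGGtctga
H2-DMb2, chr17:34145109-34145168: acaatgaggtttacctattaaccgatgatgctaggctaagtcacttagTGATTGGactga
H2-Oa, chr17:34092286-34092345: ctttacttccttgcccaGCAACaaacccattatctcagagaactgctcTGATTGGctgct
H2-Ob, chr17:34238798-34238857: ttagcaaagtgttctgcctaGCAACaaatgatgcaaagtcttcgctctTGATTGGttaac

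The Y box letters stood in the windows of all these genes, on the strand of the gene, and in neither of the 2 windows of H2-DMa. The X core letters preceded them by 30 bases in H2-Eb1 and H2-Eb2, by 31 in H2-Aa, H2-DMb1 and H2-Oa, and by 28 in H2-Ob, and were not found at that distance in H2-DMb2. Among all 32851 RefSeq promoter windows, 7.82% held TGATTGG on either strand, 84.8% held GNAAC, and 0.569% held the pair at that distance. Because the letters were chosen after reading the windows printed above, these shares do not test the matches. The matches describe the letters of the windows and say nothing of binding in these cells.

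**Figure D1:**
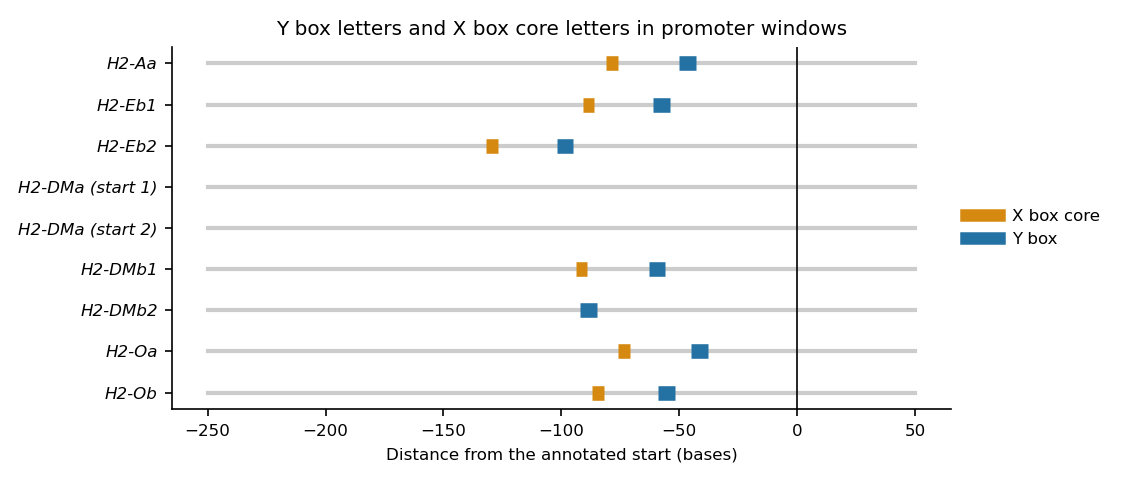
Positions of the X box core and Y box letters in the promoter windows of class II genes, as the distance in bases from the annotated start (vertical line). Grey lines are the windows searched; in every window that holds them the Y box letters lie upstream of the start, and in 6 windows the X core lies 28 to 31 bases before the Y box.

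The libraries held 8408325 to 11714365 counts each. Arhgef1 itself checks the labels: it stood at 115, 128 and 144 CPM (normalised counts, per library size scaled by TMM) in KO libraries, against 287, 317 and 246 CPM in WT libraries (log2 fold change -1.13 ± 0.11, SE; edgeR adjusted p = 6.96e-06). The cDC2 label was checked against markers: Itgax averaged 1262 CPM in KO and 1406 CPM in WT, and Irf4, the factor of the cDC2 lineage, 429 and 425 CPM. Of the 8 cDC2 markers read, 3 were called lower in the KO and 0 higher, as given further on. Among cDC1 genes, the receptor gene Xcr1 had 29.8, 10.1 and 6.14 CPM in KO libraries 1, 2 and 3, against 19.8, 15.1 and 11.7 CPM in WT libraries. Clec9a had 33.5, 6.00 and 5.71 CPM in KO libraries, against 18.8, 21.0 and 8.26 CPM in WT libraries, while Wdfy4, of the same marker list, averaged 1771 CPM in KO and 1856 CPM in WT. KO replicate 1 thus stood apart from the other KO libraries in Xcr1 and Clec9a, as it did in the macrophage gene Vcam1 (115, 49.1 and 48.002 CPM in KO, against 362, 274 and 168 CPM in WT). Without it, 5 of the 6 members described below as lower passed the edgeR test, H2-DMa being the exception. KO and WT libraries carry different lane and run names in the labels, so lane, run and genotype cannot be told apart. Nothing in the labels says that replicates are separate animals, so the p-values refer to the spread among these libraries, part or all of which may be technical.

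The chain genes H2-Aa, H2-Ab1, H2-Eb1 and H2-Eb2 fell in the KO, while the invariant chain gene and Ciita did not pass the test. In total 6 of the 10 members fell, 0 rose and 4 did not pass, at an edgeR adjusted p under 0.05 over all genes tested. Of all 11504 genes, 4.58% were called lower and 5.09% higher in the same comparison. For the count of 0, also 0 members were higher at an unadjusted p under 0.05, and DESeq2 and limma-voom each called 0 higher. The median log2 fold change of the 10 members was -0.29, beside 0.0003 over all genes tested. Since these genes are abundant, the share called lower was also taken among the 1977 genes whose average log2 CPM reached 6.83, the lowest of a member: 10.2% were lower there and 9.31% higher. In 7 members all KO values lay below all WT values, as in 13.5% of all genes tested and 20.9% of those 1977 abundant genes, and in 0 members all lay above, as in 13.7%. The members were chosen with earlier results of these data known, so these shares are a description and not a test. Over the same libraries 14 of 16 macrophage markers also fell, with values given further on.

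**Figure D2:**
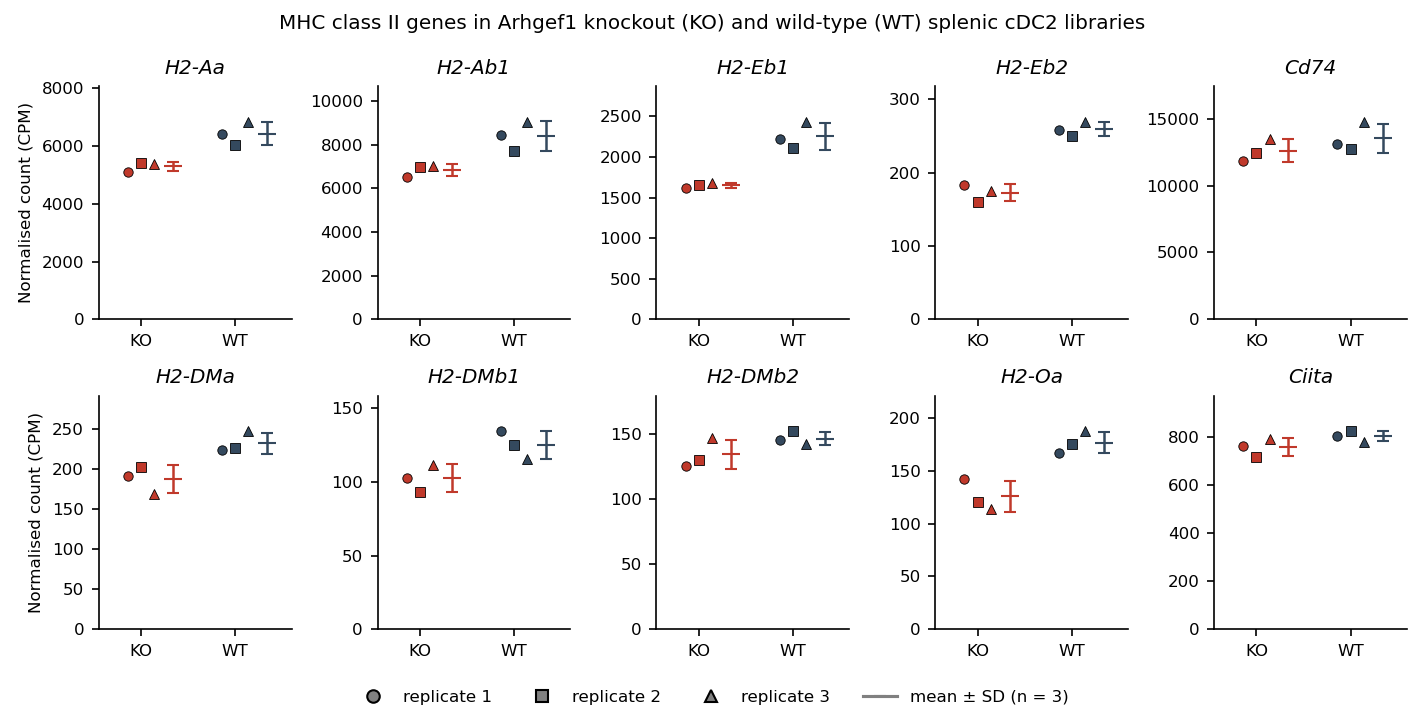
Normalised counts (CPM, axes from 0) of the 10 members in each library, KO left and WT right; circles, squares and triangles are replicates 1, 2 and 3, and the bar is the mean ± SD of 3 libraries. In 7 members every KO value lies below every WT value, and in Cd74, H2-DMb2 and Ciita the groups overlap.

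The A molecule is the class II molecule that C57BL/6 cells display, made of the alpha chain from H2-Aa and the beta chain from H2-Ab1. H2-Aa had 5114, 5400.4 and 5378 CPM in KO libraries 1, 2 and 3, against 6408, 6031 and 6844 CPM in WT libraries 1, 2 and 3. H2-Ab1 had 6497, 6979 and 7016 CPM in the KO libraries, against 8448, 7682 and 9050.03 CPM in the WT libraries. For each of these chains all KO values lay below all WT values, and KO replicate 1 was the lowest of the 6 libraries. The KO level was 82.4% of the WT level for H2-Aa (log2 fold change -0.28 ± 0.06, SE; edgeR adjusted p = 0.00472) and 81.4% for H2-Ab1 (-0.30 ± 0.06; edgeR adjusted p = 0.00430). For the chains that pair with each other, the count of H2-Aa over that of H2-Ab1 was 0.787, 0.774 and 0.767 in KO libraries, against 0.758, 0.785 and 0.756 in WT libraries. The groups overlapped in this ratio (exact permutation test, two-sided, p = 0.5).

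The E beta chain gene H2-Eb1 was lower by a greater margin. It had 1619, 1649.8 and 1676 CPM in KO libraries, against 2218, 2113 and 2435 CPM in WT libraries. All KO values lay below all WT values, and the coefficient of variation was 1.73% over the KO libraries and 7.28% over the WT libraries. The KO level was 73.1% of WT (log2 fold change -0.45 ± 0.07, SE; edgeR adjusted p = 2.61e-04). Set against its neighbour within each library, the ratio of H2-Eb1 to H2-Ab1 counts was 0.249, 0.236 and 0.239 in KO, against 0.263, 0.275 and 0.269 in WT. Every KO ratio lay below every WT ratio (exact permutation test, two-sided, p = 0.1, the smallest that 3 against 3 libraries allow, and 0.18 adjusted over the 9 ratios compared).

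H2-Eb2, a beta chain gene related to H2-Eb1 and next to it in the cluster, showed the largest fall among the members. It had 183, 160.1 and 176 CPM in KO libraries, against 259, 250.1 and 269.8 CPM in WT libraries. The KO level was 66.6% of WT (log2 fold change -0.59 ± 0.09, SE; edgeR adjusted p = 3.90e-04), and the groups did not overlap. The longest protein-coding transcripts of H2-Eb1 and H2-Eb2 in GENCODE shared 0 stretches of 50 bases, so no exact read of that length would match both. The gene of the missing partner chain, H2-Ea-ps, was barely detected, with 11, 9 and 14 counts in KO libraries, against 29, 35 and 14 counts in WT libraries. Scaled for library size, it had 1.28, 0.93 and 1.19 CPM in KO, against 2.78, 4.03 and 1.65 CPM in WT, without overlap. It did not pass the test (edgeR adjusted p = 0.212) and was named after its values were seen.

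Cd74 (chromosome 18, 60803848 to 60812652, plus strand) is the invariant chain gene and the most abundant of the members. It had 11857, 12448 and 13523.5 CPM in KO libraries, against 13130.4, 12741 and 14793 CPM in WT libraries. The groups overlapped: KO replicate 3 lay above WT replicates 1 and 2. The log2 fold change was -0.10 ± 0.06 (SE; 95% interval -0.23 to 0.02; edgeR adjusted p = 0.336). The annotated span of Cd74 is overlapped on the same strand by the microRNA gene Mir5107, which was counted as a gene of its own. Its effect on the Cd74 counts was not tested. The ratio of H2-Eb1, H2-Ab1 or H2-Aa counts to Cd74 counts within a library does not depend on the scaling of libraries. For H2-Eb1 it was 0.137, 0.133 and 0.124 in KO libraries, against 0.169, 0.166 and 0.165 in WT libraries. For H2-Ab1 it was 0.548, 0.561 and 0.519 in KO, against 0.643, 0.603 and 0.612 in WT. For H2-Aa it was 0.431, 0.434 and 0.398 in KO, against 0.488, 0.473 and 0.463 in WT. In all these ratios every KO value lay below every WT value (exact permutation tests, two-sided, p = 0.1 each, 0.18 adjusted over 9 ratios).

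**Figure D3:**
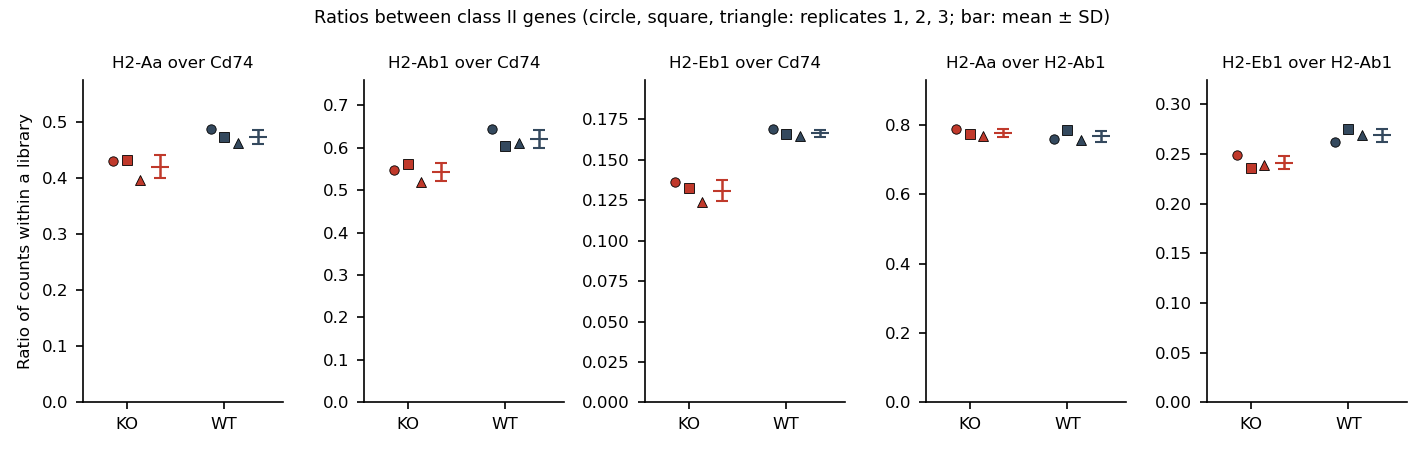
Ratios of counts between class II genes within each library (axes from 0), KO left and WT right, with the mean ± SD of 3 libraries. The ratios of H2-Aa, H2-Ab1 and H2-Eb1 to Cd74, and of H2-Eb1 to H2-Ab1, are lower in every KO library than in any WT library. The ratio of H2-Aa to H2-Ab1 overlaps.

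H2-DM, the exchange catalyst, is made of an alpha chain from H2-DMa and a beta chain from H2-DMb1 or H2-DMb2. H2-DMa had 191, 203 and 169 CPM in KO libraries, against 224, 226 and 247 CPM in WT libraries. Its KO level was 80.8% of WT and just passed (log2 fold change -0.31 ± 0.10, SE; edgeR adjusted p = 0.0498). This call was lost without KO replicate 1 (-0.32) or 3 (-0.24) and without WT replicate 1 (-0.33), 2 (-0.33) or 3 (-0.26), as well as under other settings given in the closing section. H2-DMb1 had 103, 93.0 and 112 CPM in KO libraries, against 134, 125 and 115 CPM in WT libraries. Its groups did not overlap, but it did not pass (log2 fold change -0.29 ± 0.11, SE; 95% interval -0.52 to -0.05; edgeR adjusted p = 0.125). H2-DMb2 had 126, 131 and 147 CPM in KO libraries, against 146, 152 and 142 CPM in WT libraries, with overlapping groups (log2 fold change -0.12 ± 0.10, SE; 95% interval -0.34 to 0.09; edgeR adjusted p = 0.536).

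The beta genes of H2-DM are near copies, and their values are uncertain for that reason. Of the 50-base stretches of the longest H2-DMb1 transcript 27.2% also occurred in H2-DMb2 transcripts, and 25.2% of those of H2-DMb2 in H2-DMb1, so the counting could drop or split their shared reads. Counted together they took 0.0233%, 0.0225% and 0.0260% of counts in KO libraries, against 0.0273%, 0.0276% and 0.0256% in WT libraries. The groups overlapped in this sum as well. Their promoter stretches, printed above, begin alike, and H2-DMb2 lacks the X core letters that H2-DMb1 holds.

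H2-Oa encodes the alpha chain of H2-DO, the brake on H2-DM. It had 142, 121 and 114 CPM in KO libraries, against 167, 176 and 187 CPM in WT libraries. All KO values were below all WT values, and the KO level was 71.1% of WT (log2 fold change -0.49 ± 0.11, SE; edgeR adjusted p = 0.00607). H2-Ob, the beta chain of H2-DO and not a member, fell as well, with 497, 535 and 522 CPM in KO libraries, against 697, 663 and 688 CPM in WT libraries (log2 fold change -0.40 ± 0.07, SE; edgeR adjusted p = 0.00197). The count of H2-Oa over that of H2-DMa was 0.743, 0.595 and 0.677 in KO libraries, against 0.747, 0.777 and 0.757 in WT libraries. Those groups did not overlap, but KO replicate 1 came within 0.01 of WT replicate 1 (exact permutation test, two-sided, p = 0.1, and 0.18 adjusted over 9 ratios). The annotated span of H2-Oa is overlapped on the other strand by BC051537, at 5.27 CPM in KO and 5.002 CPM in WT, and that of H2-DMa by Brd2, at 425 CPM in KO and 396 CPM in WT. Whether the counting used strand was not stated in the sources used here.

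Ciita had 762, 715 and 791 CPM in KO libraries, against 803, 822 and 779.9 CPM in WT libraries. KO replicate 3 lay above WT replicate 3, so the groups overlapped. The log2 fold change was -0.08 ± 0.07 (SE; 95% interval -0.24 to 0.07; edgeR adjusted p = 0.551). The 95% intervals of H2-Aa (-0.40 to -0.16), H2-Ab1 (-0.43 to -0.17) and H2-DMa (-0.51 to -0.11) overlapped that of Ciita. Those of H2-Eb1 (-0.59 to -0.31), H2-Eb2 (-0.78 to -0.39) and H2-Oa (-0.72 to -0.27) lay below it. Whether the changes of these genes differ from that of Ciita was not tested. Ciita is transcribed from several promoters, one of them used by dendritic cells, and a count per gene does not separate them. Dexi overlaps its span on the other strand, at 31.2 CPM in KO and 36.5 CPM in WT.

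Within each genotype some members shared their lowest or highest library. KO replicate 1 had the lowest and WT replicate 3 the highest value of its genotype for H2-Aa, H2-Ab1, H2-Eb1 and Cd74. WT replicate 3 held the highest WT value in 7 of the 10 members, and KO replicate 3 the highest KO value in 6. H2-DMb1, H2-DMb2 and Ciita went the other way in WT, where replicate 3 was the lowest. All 10 members together took 2.72%, 2.81% and 2.91% of all counts in KO libraries, against 3.12%, 3.02% and 3.46% in WT libraries. Without Cd74 the other members took 1.51%, 1.56% and 1.56% in KO, against 1.83%, 1.75% and 1.99% in WT.

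**Figure D4:**
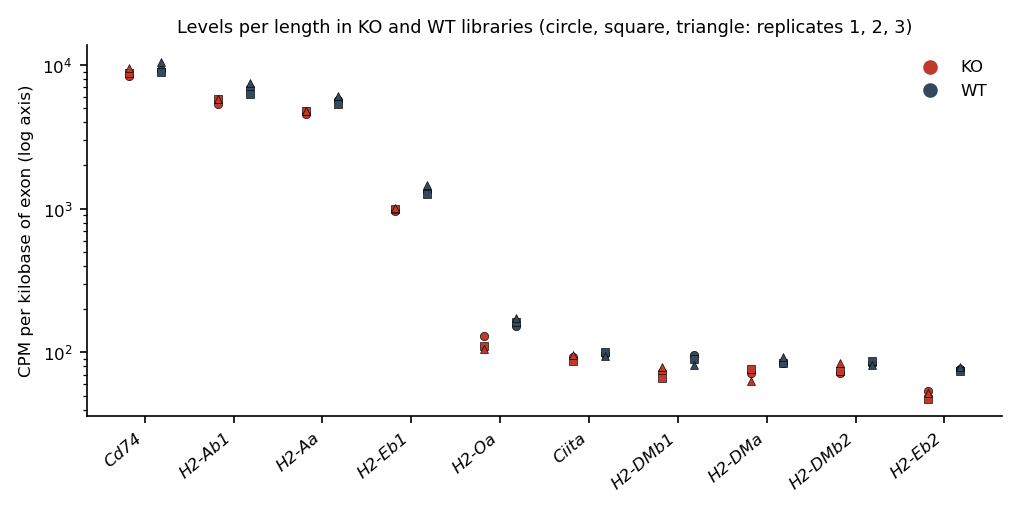
Level of each member as CPM per kilobase of exon (log axis), in each KO (left) and WT (right) library, ordered by the WT mean. Cd74, H2-Ab1, H2-Aa and H2-Eb1 stand above the chaperone genes, H2-Eb2 and Ciita in all 6 libraries.

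Per kilobase of exon (GENCODE basic transcripts), Cd74 stood highest at 8905 CPM per kilobase in KO and 9573 in WT. Below it came H2-Ab1 (5636 in KO and 6925 in WT), H2-Aa (4697 and 5698) and H2-Eb1 (988 and 1351), each apart from the next in all libraries of its genotype. H2-Oa (116 in KO and 163 in WT) and Ciita (91.9 and 97.5) followed, and then H2-DMb1 (73.0 and 89.0), H2-DMa (70.4 and 87.2) and H2-DMb2 (77.0 and 83.9), whose ranges overlapped with one another. In WT the range of Ciita also overlapped that of H2-DMb1. H2-Eb2 was lowest at 51.0 CPM per kilobase in KO and 76.5 in WT. With the exons of all GENCODE transcripts in place of the basic set, the order of the leading 4 genes was the same, with H2-Oa next. H2-Ab1 dropped to 2660 in KO and 3268 in WT, and H2-Aa to 1395 in KO and 1692 in WT. The mean of H2-Eb2 in WT then lay above those of H2-DMb1 and H2-DMa.

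Of the proteases and other genes that act on class II after synthesis, 4 of 10 tested fell, 0 rose and 6 did not pass, with a median log2 fold change of -0.37. At an unadjusted p under 0.05 in edgeR 8 of them were lower and 0 higher. DESeq2 called 6 lower and limma-voom 5, and each called 0 higher. Ctss, cathepsin S, which cuts the invariant chain down to its last fragment, had 831, 834 and 773 CPM in KO libraries, against 1091, 1093 and 1160.2 CPM in WT libraries (log2 fold change -0.46 ± 0.07, SE; edgeR adjusted p = 3.60e-04). Ctsb, a lysosomal protease, averaged 247 ± 15.4 CPM in KO and 401 ± 59.6 CPM in WT (SD, n = 3 each; log2 fold change -0.70, with an edgeR adjusted p of 2.14e-04). March1, a ubiquitin ligase that removes class II from the surface, averaged 332 ± 16.7 CPM in KO and 417 ± 15.4 CPM in WT (SD, n = 3 each; log2 fold change -0.33, edgeR adjusted p = 0.0151). Its call was lost without KO replicate 3 (-0.29) and without WT replicate 1 (-0.33) or 3 (-0.30). March8 averaged 0.94 CPM in KO and 3.59 CPM in WT and did not pass (-1.93 ± 0.61, SE; edgeR adjusted p = 0.0541). Cd83, which opposes March1, did not pass (-0.25 ± 0.08, SE; edgeR adjusted p = 0.0768), nor did the thiol reductase gene Ifi30 (-0.14 ± 0.08; edgeR adjusted p = 0.341).

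Of 11 factors that bind class II or Ciita promoters or act above them, 1 rose, 1 fell and 9 did not pass, with a median of -0.12. Rfx5, the X box binding subunit of RFX, averaged 158 CPM in KO and 173 CPM in WT and did not pass (log2 fold change -0.13 ± 0.10, SE; edgeR adjusted p = 0.482). Rfxank, the gene of another RFX subunit, averaged 3.17 CPM in KO and 7.78 CPM in WT, with all KO values below all WT values, and did not pass (-1.30 ± 0.43, SE; edgeR adjusted p = 0.0646). It passed with DESeq2 (-1.30, adjusted p = 0.0374), under which 2 factors were lower, and with edgeR without WT replicate 3 (-1.60, adjusted p = 0.0322). The Y box factor genes Nfya (0.14), Nfyb (0.38) and Nfyc (-0.20) did not pass either. Irf1, an interferon-induced transcription factor gene, fell by 0.38 on the log2 scale (edgeR adjusted p = 0.0480), a call lost with total counts (-0.34) or a replicate block (-0.38), without KO replicate 1 (-0.38) or 3 (-0.28) and without WT replicate 1 (-0.37), 2 (-0.43) or 3 (-0.33). Sfpi1 (Spi1), which encodes the myeloid factor PU.1, averaged 289.6 CPM in KO and 233 CPM in WT (0.32 ± 0.10, SE; edgeR adjusted p = 0.0421). Its call was lost with a replicate block (0.31), without KO replicate 2 (0.33) or 3 (0.23) and without WT replicate 1 (0.28), 2 (0.35) or 3 (0.32).

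**Figure D5:**
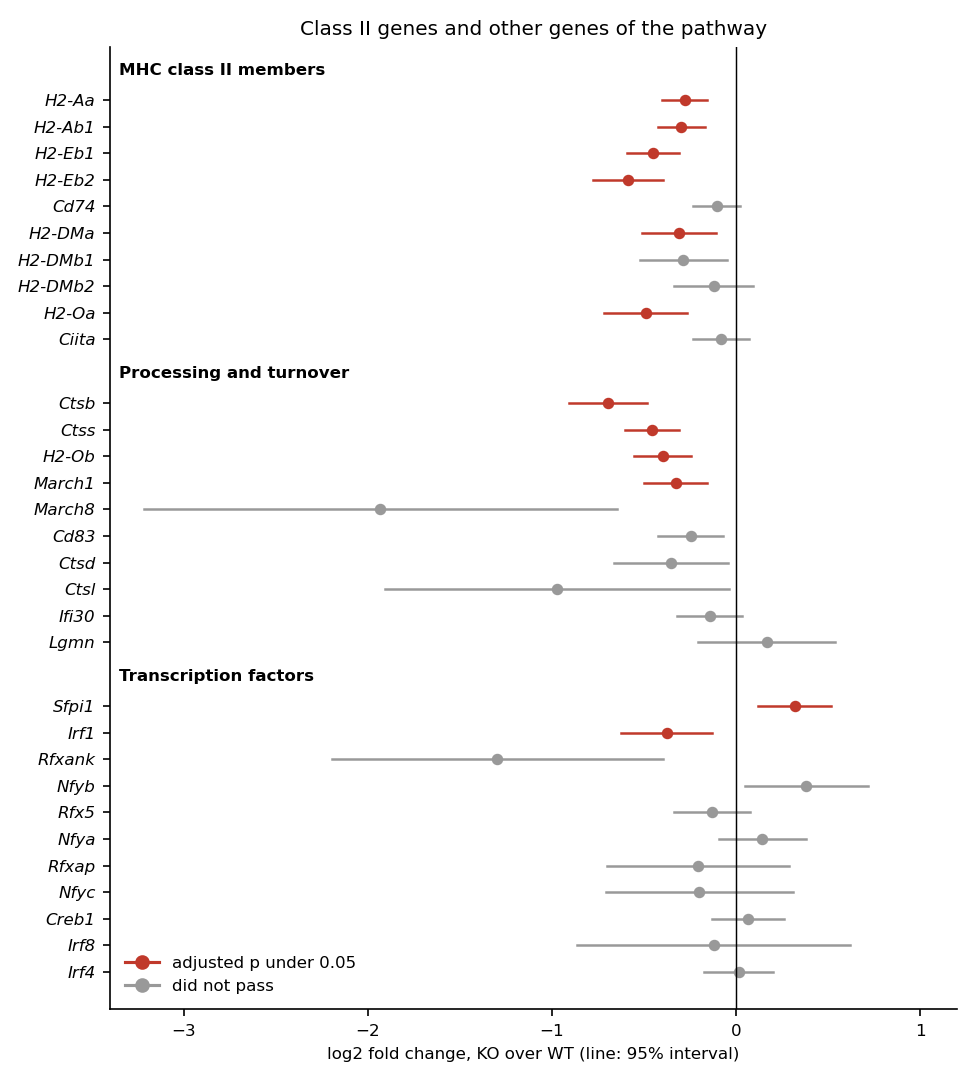
Log2 fold change (KO over WT, point) and its 95% interval (line) for the 10 members and for 2 lists of other class II pathway genes; red marks genes with an edgeR adjusted p under 0.05. Red points of the members and of the processing list lie below 0, while Cd74 and Ciita lie near it in grey.

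MHC class I genes gave a comparison with the other presentation pathway. Of 14 tested, 2 fell, 1 rose and 11 did not pass, with a median log2 fold change of -0.15. At an unadjusted p under 0.05 in edgeR 6 of them were lower and 2 higher. All KO values lay below all WT values in 6 of the 14 and above in 2, beside 13.5% and 13.7% of all genes tested. H2-K1 averaged 1814 ± 81.8 CPM in KO and 2183 ± 106 CPM in WT (SD, n = 3 each; log2 fold change -0.27, edgeR adjusted p = 0.0145). The light chain gene B2m did not pass (-0.09 ± 0.06, SE; edgeR adjusted p = 0.477), and Canx, a folding chaperone of the endoplasmic reticulum, rose (0.39 ± 0.08, SE; edgeR adjusted p = 0.00567). H2-K1 lost its call without KO replicate 1 (-0.25) or 3 (-0.24) or WT replicate 1 (-0.23). H2-D1 (-0.23, edgeR adjusted p = 0.0378) lost its own with total counts (-0.20) or a replicate block (-0.23), without KO replicate 1 (-0.22), 2 (-0.25) or 3 (-0.22), and without WT replicate 1 (-0.19) or 3 (-0.23). Whether the class II and class I lists differ was not tested.

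Markers of other cells that carry class II were read beside these results, because in bulk samples fewer cells of a type and less RNA per cell cannot be told apart. Of 16 macrophage markers 14 fell and 2 did not pass, and the list summed to 297 to 463 CPM in KO libraries and 809 to 1266 CPM in WT libraries. In the same libraries the 10 members summed to 26594.5 to 29103 CPM in KO and 30317 to 34864 CPM in WT. None of the 16 was at 0 in all libraries. The defining genes were present in both genotypes, with Vcam1 at 70.8 CPM in KO and 268 CPM in WT and C1qb at 11.4 CPM in KO and 36.1 CPM in WT, and their part in the class II values was not tested. Of 9 tested B cell markers 0 passed with edgeR, 0 had an unadjusted p under 0.05, and DESeq2 and limma-voom each called 0. They summed to 456 to 525 CPM in KO and 413 to 481 CPM in WT, most of it Cd22, while Ms4a1 averaged 21.4 CPM in KO and 17.5 CPM in WT. Of 8 cDC1 markers 1 fell, Cadm1 (-1.08), and lost its call without KO replicate 2 (-0.998) or 3 (-0.92) and without WT replicate 1 (-0.80) or 2 (-1.16), while 2 cDC1 markers fell without KO replicate 1. Of 4 tested plasmacytoid markers 0 passed with edgeR, DESeq2 or limma-voom, and 0 had an unadjusted p under 0.05.

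Of the cDC2 markers, which also mark the share of cDC2s in the sample, 3 of 8 fell and 5 did not pass (median -0.27). These were Cd4 (-0.67), Sirpa (-0.32) and Clec4a4 (-0.40). At an unadjusted p under 0.05 in edgeR 5 of the 8 were lower and 0 higher. All KO values lay below all WT values in 6 of the 8 and above in 0, beside 13.5% and 13.7% of all genes tested. Sirpa lost its call without WT replicate 1 (-0.29), and Clec4a4 without KO replicate 1 (-0.39) or 3 (-0.34) and without WT replicate 2 (-0.38) or 3 (-0.35). Genes of dendritic cell maturation, a state in which Ciita is known to be silenced, included 1 of 10 that fell, Cd86 (-0.57), and 1 that rose, Fscn1 (0.89), while the migration receptor gene Ccr7 averaged 77.4 CPM in KO and 78.5 CPM in WT (edgeR adjusted p = 0.958). Socs2, of the same list, averaged 13.9 CPM in KO and 6.29 CPM in WT, with overlapping groups. It did not pass (1.13 ± 0.38, SE, edgeR adjusted p = 0.0741). It was called higher with DESeq2 (1.14), no filter (1.13) or a replicate block (1.17), and without KO replicate 2 (1.41) or WT replicate 1 (1.69). Across the alternatives 0 to 2 of the maturation genes rose. Fscn1 lost its call without KO replicate 1 (0.67) or 3 (0.79), without WT replicate 2 (0.74) or 3 (0.75), and with DESeq2 (0.89) or limma-voom (0.84).

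The genes whose values followed a mean of abundant members most closely were sought among 5124 other genes whose average log2 CPM reached 5. The measure was Pearson's r over the 6 libraries with the mean log2 CPM of H2-Aa, H2-Ab1, H2-Eb1 and Cd74, given as a description. The closest were Stat4 (r = 0.990), Ulk3 (0.989), Dnase1l3 (0.986), Neat1 (0.986) and Fuca1 (0.985). Because the mean differs between KO and WT, genes lower in the KO lead such a ranking. Among the members themselves r with that mean was 0.900 for H2-Eb2, 0.818 for H2-DMa, 0.805 for H2-Oa, 0.677 for H2-DMb1, 0.595 for H2-DMb2 and 0.491 for Ciita.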

How the data were processed

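The authors deposited unnormalized read counts for each gene symbol in 6 libraries. Per the submitters' processing notes, the tools were STAR, HTSeq and DESeq2 and the build mm10; the sources used here give no version, annotation or strand setting. Counts were fitted with edgeR 4.0.16 in R 4.3.3 (filterByExpr, TMM, quasi-likelihood F test of genotype over all 6 libraries), with Benjamini-Hochberg adjustment over 11504 genes and a threshold of 0.05; the fit was tested on simulated data. Standard errors came from the fold change and F. CPM uses TMM-scaled library sizes. Ratios were compared by exact permutation over libraries. Alternatives were DESeq2 size factors, total counts, no filter, 5 CPM in 3 libraries, DESeq2 1.42.0, limma-voom 3.58.1, a replicate block and leaving out each library. Leaving out libraries for the ratios, and a second exon set, were added after seeing the data. Members and lists were chosen with earlier results of these data known. The rule for named genes took all members, Arhgef1, and of each other list those called or among the 4 smallest p. It also took the 5 genes most like the mean of H2-Aa, H2-Ab1, H2-Eb1 and Cd74. Not every listed gene that the rule takes is named; the rest stand in their list's counts, and some genes outside the rule serve as context. Of the listed genes Sppl2a was not analysed here. Some other listed genes are not reported here and were left out of their lists' counts. Intervals of fold changes are 95% intervals from the fit.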

Additional observations from a re-analysis of the deposited data

How the results depend on the processing

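The number of members lower in the KO was 5 or 6 under all 13 alternatives and that of members higher was 0. H2-Aa, H2-Ab1, H2-Eb1, H2-Eb2 and H2-Oa kept their calls in all 13, and Cd74, Ciita, H2-DMb1 and H2-DMb2 passed in none; the call of H2-DMa alone was lost, in 9 of 13, among them DESeq2 size factors (-0.31), total counts (-0.28), no filter (-0.30) and the replicate block (-0.31). Over all genes, leaving out 1 library gave 310 to 583 higher and 264 to 489 lower genes, against 586 and 527. The library left out moved each count by over 1.5 times for KO replicate 2 (319 higher and 311 lower) and for WT replicates 1 (334 and 264), 2 (310 and 315) and 3 (383 and 351). Deviations of same-numbered replicates were hardly correlated across genes (r 0.04, -0.03 and -0.03). An r over all genes cannot exclude a structure that some genes share by replicate number. The replicate block changed the SE of the macrophage gene Vcam1 from 0.27 to 0.14, and that of H2-Aa from 0.06 to 0.07. It gave 5 members lower, 496 genes higher and 449 lower. Leaving out 1 library turned the direction of markers that never passed, Siglech (-0.41 to 0.34) and Ccr9 (-0.45 to 0.54). Ratios to Cd74 stayed lower in KO without any 1 library, at 0.770 to 0.808 of WT for H2-Eb1. Depth limits genes such as H2-Ea-ps, at 9 to 35 counts a library; Cd74 had 101864 to 158612 counts a library, and its CPM varied by 6.70% (coefficient of variation) among KO and 8.04% among WT libraries.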
